A study of Mus musculus with 2 samples.

Results

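The Hox cluster genes are the homeobox genes of the HoxA, HoxB, HoxC and HoxD clusters, and they were followed here in mIMCD3 cells, an epithelial line from the inner medullary collecting duct of the mouse kidney. They were taken as every non-control spot of the array whose gene name is Hox, a cluster letter from a to d, and a number. The genes reported are 38 out of 34650 gene names on the array, measured by 43 probes out of 55681. Of these genes, 33 had 1 probe and 5 had 2 probes. Total RNA of cells given 10 ng/mL of the growth factor FGF23 for 4 h was hybridised against total RNA of cells cultured without FGF23, on 2 Agilent two-colour arrays. FGF23 RNA carried Cy3 on array 1 and Cy5 on array 2, so each of the 4 signals of a probe (FGF23 and unstimulated, on either array) comes from a known dye. The cells are a single immortalised line grown with serum, and the labels leave unsaid whether each array had its own culture. The p-values below are a measure of array-to-array spread, part or all of which may be technical.

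Hox genes encode transcription factors that bind DNA through a homeodomain. They sit in 4 clusters in the order in which they are used along the body axis, from group 1 at the head end to group 13 at the tail end, and genes of the same number in different clusters (a paralogue group) are copies of one ancestral gene. Cells of an adult tissue usually keep the set of Hox genes that was active where the tissue arose. In the kidney, the collecting duct grows from the ureteric bud, an outgrowth of the nephric duct, whereas nephrons come from the surrounding mesenchyme, where the Hox11 genes are needed. FGF23 is a hormone of phosphate balance that acts on the renal tubule, and the study asked which other genes of tubule cells it changes.

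Between 48.2% and 55.2% of the spots of an array were well above background in a given dye by the scanner software's flag, and no spot was saturated. The cell type of the label was checked against marker lists. Of 21 markers of collecting duct and ureteric epithelium, 16 were detected, among them Cdh1, Epcam, Gata3, Pax2, Pax8 and the vasopressin-regulated water channel Aqp2. Ret, Wnt9b, Aqp3, Avpr2 and Elf5 were not detected. Of the other lists, 3 of 8 nephron progenitor markers (Cited1, Eya1 and Gdnf) and 3 of 8 stromal markers (Col1a1, Foxd1 and Meis1) were detected. So were 3 of 6 proximal tubule markers (Aqp1, Lrp2 and Slc22a6), 2 of 4 endothelial markers (Kdr and Pecam1) and 2 of 4 macrophage markers (Cd68 and Csf1r). Across all gene names on the array the share was 55.3%, so detection of a marker does not by itself give the cell type. Six2, the defining gene of the nephron progenitors, was not well above background. In RNA of a whole culture, fewer cells with a transcript and less of it per cell cannot be told apart.

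Hox transcripts are alike in the homeodomain, so some of the probes that read it, or the stretch before it, are shown first. Every probe is 60 bases long and is given 5′ to 3′ in the sense of the transcript, with positions on mouse build mm9 as deposited. Capitals mark 3 motifs. In Hoxa6 they are the codons of the hexapeptide core, the short motif before the homeodomain through which Hox proteins bind their PBX partners. In the earlier stretch of Hoxc11 and in Hoxd10 they are codons near the start of the third helix, which lies in the major groove of DNA. In Hoxc12 and the later stretch of Hoxc11 they are codons at the end of that helix. Each motif was searched with any base allowed at its variable codon positions. The 3 motifs do not overlap in any probe shown, and both strands were searched. The Hoxa6 probe (chr6:52158194-52158253, minus strand) gave 4 of 4 signals well above background. The Hoxc11 (chr15:102787022-102787081), Hoxc12 (chr15:102768889-102768948) and Hoxd10 (chr2:74532280-74532339) probes, all on the plus strand, gave 0 of 4.
Hoxa6: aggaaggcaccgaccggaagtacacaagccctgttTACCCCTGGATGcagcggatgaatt
Hoxc11: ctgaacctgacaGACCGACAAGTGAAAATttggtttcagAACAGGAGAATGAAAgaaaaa
Hoxc12: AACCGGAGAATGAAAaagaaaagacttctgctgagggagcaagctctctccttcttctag
Hoxd10: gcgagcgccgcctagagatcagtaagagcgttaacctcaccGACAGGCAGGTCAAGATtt

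The Hoxc11 and Hoxc12 probes both carry the motif of the end of the helix, and the Hoxc11 and Hoxd10 probes that near its start. Within each pair the motif differs in bases at its variable positions. These probes stayed at background. The motif does not mark background probes, since of the 3 Hox probes with the end-of-helix codons 1 was above background in 4 of 4 signals. Over all 55681 probes, the base pattern of the hexapeptide codons occurred in the sense strand of 4 (0.0072%). The start-of-helix pattern occurred in 2 (0.0036%) and the end-of-helix pattern in 10 (0.018%). On the opposite strand the 3 patterns occurred in 3, 0 and 4 probes. Some sense matches lay outside the Hox genes, as in Rad21 for the hexapeptide and Bsx and Cpeb4 for the end of the helix. A match of bases alone therefore does not give the protein motif. Most Hox probes read other stretches. Between the 43 Hox probes, in the 898 pairs from different genes, the longest shared run of bases had a median of 6 and a maximum of 11. A single probe was listed with transcripts of 2 Hox genes, the dimmer Hoxb3 probe, whose listed accessions include a Hoxd3 transcript. Hoxd3's own probe was at background, and the other Hoxb3 probe, which is not shared, gave 4 of 4 signals. The base composition of probes above and below background was close, with a median GC content of 38.3% in the 27 probes that passed the filter and 40.8% in the 16 that did not.

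Of the 38 Hox genes, 24 were well above background on both arrays. Across all gene names on the array the share was 55.3%, so the Hox genes as a whole were not far from the array's background. The count differed by cluster. In HoxA, 9 of 10 genes were detected, all but Hoxa13, and in HoxB 9 of 10, all but Hoxb1. In HoxC, 3 of 9 were detected (Hoxc4, Hoxc6 and Hoxc9), and in HoxD 3 of 9 (Hoxd4, Hoxd8 and Hoxd9). Each of the 24 genes was above background in all 4 signals, with and without FGF23, so the set of detected genes was the same in either condition. Of the other 14 genes, 11 had no signal above background from any probe, and 3 (Hoxa13, Hoxc8 and Hoxc10) had some but did not pass. No test of the cluster difference was run, since the genes of a cluster are not replicates.

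**Figure D1:**
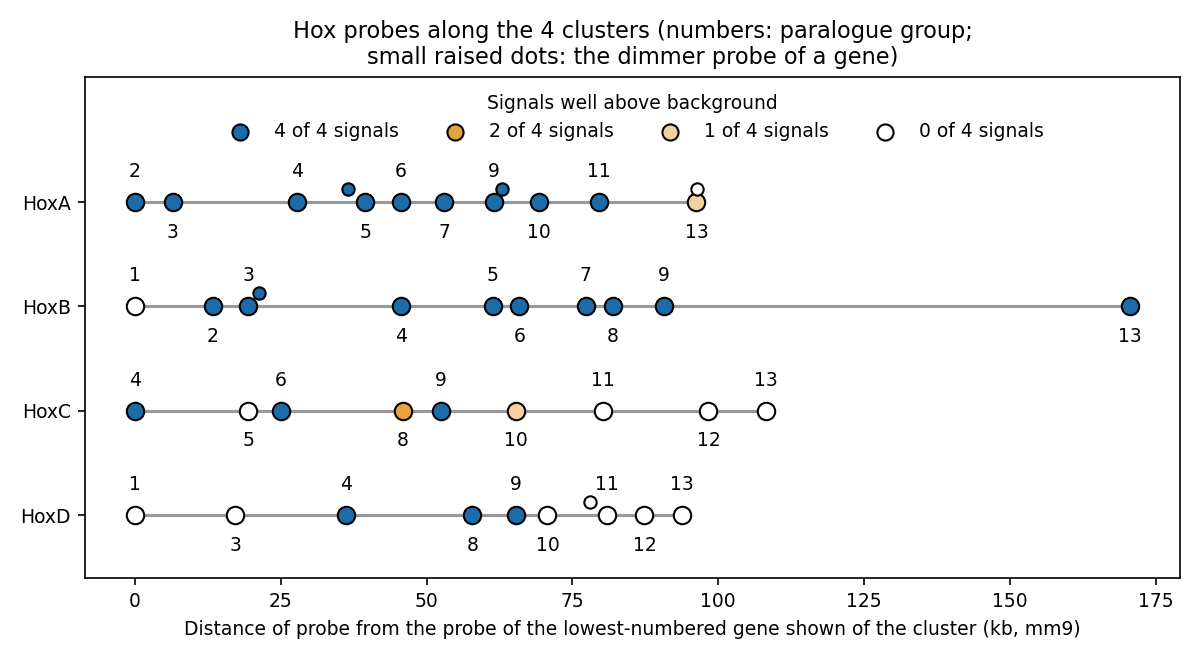
Each dot is a Hox probe, placed by its distance in kb (mm9) from the lowest-numbered gene shown of its cluster and coloured by how many of its 4 signals (2 conditions on 2 arrays) were well above background. Numbers are paralogue groups, and a small raised dot is the dimmer probe of a gene with 2. HoxA and HoxB are filled along nearly their whole length, and HoxC and HoxD are filled in part of groups 4 to 9.

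Read by paralogue group, detection was fullest in the middle of the clusters. All members of groups 2, 4, 6, 7 and 9 were detected (2 of 2, 4 of 4, 3 of 3, 2 of 2 and 4 of 4). Groups 3, 5 and 8 each had 2 of 3, lacking Hoxd3, Hoxc5 and Hoxc8. In group 1, Hoxb1 and Hoxd1 were not detected. Over groups 1 to 9, 21 of 26 genes were detected, and over groups 4 to 9 17 of 19. Over groups 10 to 13, 3 of 12 were, namely Hoxa10, Hoxa11 and Hoxb13. All 3 are HoxA or HoxB genes, and in HoxC and in HoxD the highest group detected was 9. These pooled counts therefore mix paralogue group with cluster. Group 12 had 0 of 2 and group 13 had 1 of 4.

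The steps between the probes of detected and undetected genes were not set apart from those between detected genes. The latter ran from 4.57 kb (Hoxb5 to Hoxb6) to 79.9 kb (Hoxb9 to Hoxb13). The HoxD probes span chr2:74509248-74603059 (93.8 kb), and the step from Hoxd9, above background, to Hoxd10, at background, was 5.40 kb. At the other end of the HoxD block, Hoxd4 and Hoxd3 lie 18.9 kb apart. In HoxC (chr15:102759058-102867272, 108.2 kb) the step from Hoxc9 to Hoxc10 was 12.9 kb, and undetected Hoxc5 lay 5.54 kb from detected Hoxc6, so the detected genes of HoxC did not form an unbroken run. Hoxc5 lay 19.4 kb from detected Hoxc4, and undetected Hoxc8 lay 21.0 kb from Hoxc6 and 6.50 kb from Hoxc9. In HoxA (chr6:52112595-52209039, 96.4 kb) the step from Hoxa11 to Hoxa13 was 16.7 kb. In HoxB (chr11:96057854-96228510, 170.7 kb) Hoxb1 and Hoxb2 lay 13.3 kb apart. Hoxb13, a gene of the tail end that stands alone, was above background 79.9 kb from its nearest Hox neighbour Hoxb9.

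Intensities are background-subtracted scanner units, given in the order FGF23 on array 1 (Cy3), unstimulated on array 1 (Cy5), FGF23 on array 2 (Cy5) and unstimulated on array 2 (Cy3). In all 27 Hox probes that passed, the Cy5 signal was higher than the Cy3 signal on both arrays before normalization, whichever RNA it carried, so a condition can be compared only after the dyes are balanced. A probe's brightness also depends on its sequence, so probes are not ranked against each other. The 27 probes ran from 17.2 to 7120, from 43.2 to 15530, from 52.1 to 16159 and from 18.3 to 6791 in the 4 signals. The 13 probes with no signal above background ran from -2.77 to 5.95, from -4.82 to 11.1, from -6.39 to 19.3 and from -6.48 to 5.09. The ranges of these 2 sets of probes did not overlap in any of the 4 signals, as the background flag that formed them implies.

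**Figure D2:**
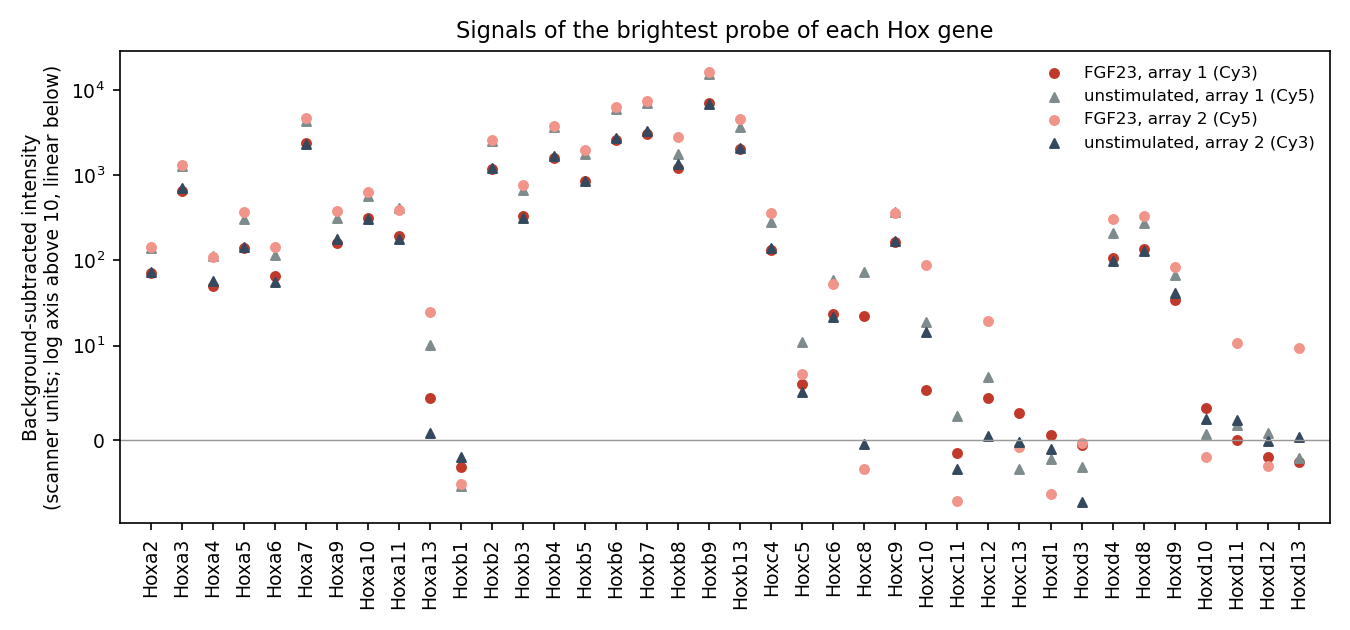
Background-subtracted intensity (scanner units, log axis above 10 and linear below) of the brightest probe of each of the 38 Hox genes, with 1 point for each of the 4 signals. Heights of different genes are not comparable, since each probe hybridises on its own scale; within a gene, the Cy5 points lie above the Cy3 points for every detected gene.

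In the HoxB cluster, Hoxb9 gave 7120, 15530, 16159 and 6791. Hoxb7, whose regulatory sequence is widely used to drive transgenes in the nephric duct and ureteric bud, gave 3080, 7126, 7395 and 3270. Both genes were far above background in every signal, and the value of a dye repeated closely on the other array although the RNA in that dye had been exchanged. Hoxb13, which patterns the tail and the prostate, gave 2021, 3654, 4550 and 2109. Hoxb8 gave 1223, 1762, 2809 and 1366, and here the Cy5 values of the arrays were further apart than in its neighbours.

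In the HoxA cluster, Hoxa11 was read by 10 spots of 1 probe (chr6:52192107-52192166), with mean intensities of 192, 412, 391 and 176. It was therefore the only detected member of the Hox11 group, whose members Hoxa11, Hoxc11 and Hoxd11 act together in the kidney mesenchyme. The Hoxc11 probe gave -1.32, 2.55, -6.39 and -3.03, and the Hoxd11 probes were also at background. Outside HoxA and HoxB, Hoxc6 gave 23.3, 59.0, 52.7 and 21.6 and Hoxd9 gave 33.9, 68.1, 83.8 and 41.9, low values that still passed the background flag in all 4 signals.

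The 3 genes with some signal above background behaved differently from the rest. Hoxc8, a gene of thoracic identity, gave 22.4 and 72.9 on array 1 but -3.08 and -0.416 on array 2, so both RNAs were above background on array 1 and neither was on array 2. Hoxc10, a lumbar and hindlimb gene, gave 5.35, 19.1, 87.5 and 14.6, and was above background only for FGF23 RNA on array 2. Hoxa13, which acts in the distal limb and the urogenital outlet, gave 4.41, 10.1, 24.7 and 0.789 from its brighter probe, again above background only in that signal. That signal, Cy5 on array 2, was the highest of the 4 in 44.1% of all probes left out, and in 7 of the 16 Hox probes left out. Since FGF23 RNA was at background on array 1 for Hoxc10 and Hoxa13, these genes had no value repeated on both arrays, and they were not tested. Each of the 3 was read by 1 spot of the probe concerned.

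Of the genes with a pair of probes, Hoxa9 and Hoxb3 had both probes above background, and Hoxd11 and Hoxa13 had both left out. The second Hoxa3 probe (chr6:52149150-52149208) was dim at 17.2, 43.2, 52.1 and 18.3, and it lies beyond the Hoxa4 probe, next to Hoxa5, with no RefSeq transcript listed. Hoxa3 is represented by the probe at chr6:52119087-52119146, with 656, 1269, 1333 and 699. Hoxb1, a gene of the fourth hindbrain segment, rests on many spots rather than few. Its 8 unflagged spots on array 1 and 10 on array 2 ranged from -6.40 to -0.0812 for FGF23 on array 1 and from -9.16 to -0.0234 on array 2, with no spot near the detected genes.

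None of the detected Hox genes passed the test for a change after FGF23. The test was limma on the log2 ratio of FGF23 over unstimulated, normalized within each array, with Benjamini-Hochberg adjustment over the 19221 genes tested and a threshold of 0.05. It called 0 of 24 Hox genes, against 9 of all genes tested (0.0468%), and each Hox gene had an adjusted p of 0.9999 (limma). At an unadjusted p under 0.05, 1 Hox gene was higher (Hoxd4) and 0 were lower, against 2.6% and 1.31% of all genes. The median log2 ratio of the 24 genes was 0.043 (0.032 on array 1 and 0.024 on array 2), against -0.00064 over all genes (-0.012 and 0.015). The SD across the Hox genes was 0.14 on array 1 and 0.13 on array 2, against 0.15 and 0.13 across all genes, so as a set they were spread no more widely than the array.

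The intervals of the fit give the range left for each gene's ratio as processed, with an offset added to the signals. They do not bound the change without that offset. With offset 0, the mean log2 ratio of Hoxd4 was 0.30 rather than 0.23, and that of Hoxa6 0.26 rather than 0.17. Not every gene moved, and Hoxb9, with the brightest signals, was 0.053 either way. Intervals with offset 0 are not given here. The 95% intervals of limma, which borrow most of their spread from all genes, reached from -0.25 for Hoxa4 (0.842-fold) to 0.48 for Hoxb8 (1.40-fold) over the 24 genes, and 23 of the 24 held 0. Moderated standard errors lay between 0.086 and 0.12. A ratio that did not pass is not shown to be unchanged; it could not be told from 0 with 2 arrays.

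**Figure D3:**
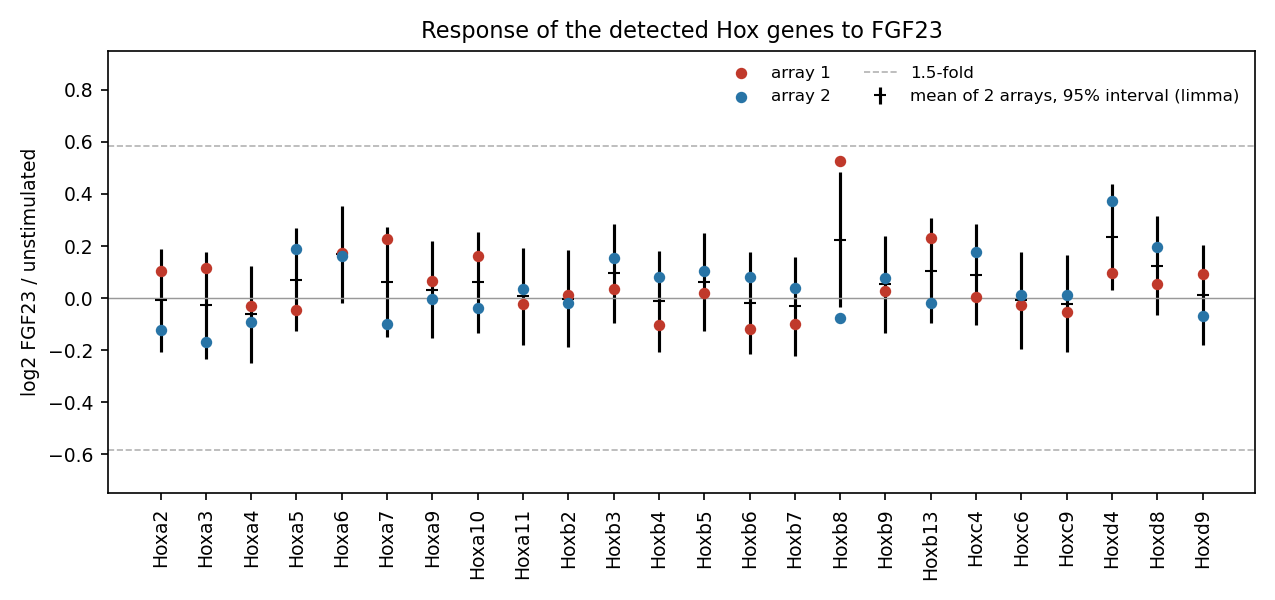
log2 FGF23 over unstimulated for the 24 detected Hox genes in cluster order, with the value of each array as a dot and the mean of the 2 arrays with its 95% interval (limma) as a bar. Dashed lines mark 1.5-fold. Under the main processing no interval reaches them, and the interval of Hoxd4 is the only 1 that does not hold 0.

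The genes with the 3 highest means were Hoxd4, Hoxb8 and Hoxa6. Hoxd4, a gene of the neck vertebrae and hindbrain (probe at chr2:74566866-74566925), had intensities of 107, 209, 303 and 99.4. Its log2 ratio was 0.095 on array 1 and 0.37 on array 2, a mean of 0.23 ± 0.20 (SD, n = 2; limma adjusted p = 0.9999, unadjusted 0.027). Both arrays were above 0, and the higher value came from array 2. Hoxb8 (chr11:96146576-96146635) had a log2 ratio of 0.53 on array 1 and -0.078 on array 2, a mean of 0.22 ± 0.43 (SD, n = 2; limma adjusted p = 0.9999). The array 1 value was the highest single value of any detected Hox gene, the scanner software's own p for it was 0.0069, and the other array did not repeat it. Hoxa6 had a log2 ratio of 0.17 on array 1 and 0.16 on array 2, a mean of 0.17 ± 0.0063 (SD, n = 2; limma adjusted p = 0.9999), the closest pair among these 3 genes.

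Of the 24 detected Hox genes, the scanner software's p-value was under 0.01 for Hoxb8 alone on array 1, for 0 genes on array 2 and for 0 on both. Outside these genes, Hoxc10, which had no value repeated on both arrays, had a scanner p of 3.43e-05 on array 2 and 0.37 on array 1. The same rule called 1.58% of all genes on array 1, 1.11% on array 2 and 0.468% on both. A count of 1 in 24 on a single array is close to that background.

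The arrays gave opposite signs for most Hox genes. The ratio was above 0 on both arrays for 7 of 24 (Hoxa6, Hoxb3, Hoxb5, Hoxb9, Hoxc4, Hoxd4 and Hoxd8), below 0 on both for 1 (Hoxa4) and of opposite sign for 16. Over all genes these shares were 23.9%, 22.3% and 53.8%. In HoxA, the median was 0.10 on array 1 and -0.039 on array 2. In HoxB it was 0.021 and 0.079, in HoxC -0.028 and 0.013, and in HoxD 0.094 and 0.20. In HoxD, 2 of 3 genes were above 0 on both arrays.

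**Figure D4:**
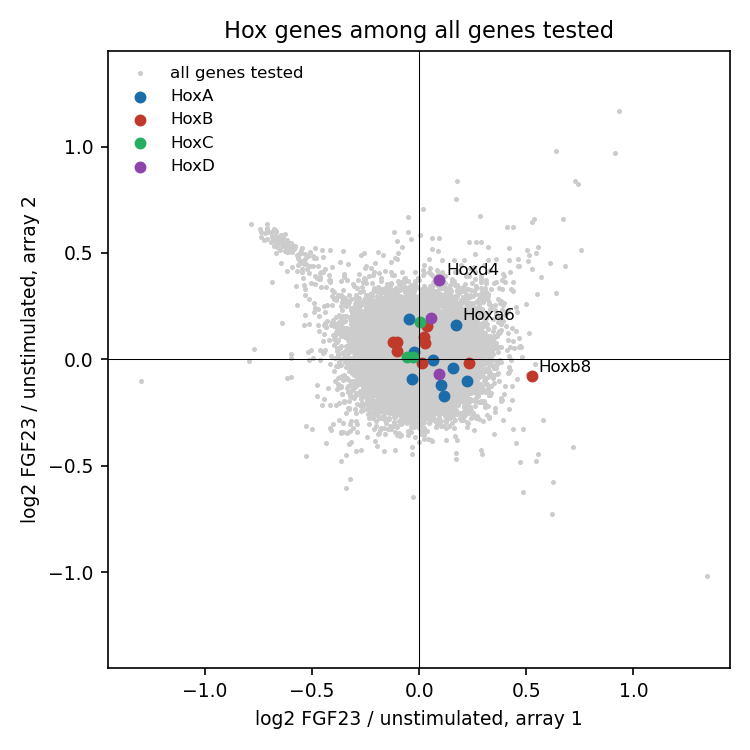
log2 FGF23 over unstimulated on array 1 (x axis) and array 2 (y axis) for all 19221 genes tested (grey) and the 24 detected Hox genes, coloured by cluster. The Hox genes lie within the central cloud; Hoxb8 stands out on the x axis (0.53) and Hoxd4 on the y axis (0.37).

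Within HoxA, the anterior genes did not move together. Hoxa2, which sets the identity of the second pharyngeal arch, had log2 ratios of 0.10 and -0.12 on arrays 1 and 2, and Hoxa3, needed for thymus and parathyroid, 0.12 and -0.17. Hoxa4 had -0.032 and -0.092. Hoxa5, which acts in lung development, had -0.046 and 0.19. These values straddled 0 for each of these 4 genes but Hoxa4, whose mean of -0.062 was the lowest of the 24 detected Hox genes. Hoxa7 had 0.23 and -0.10, Hoxa9, a regulator of blood progenitors, 0.066 and -0.0017, and Hoxa10, a gene of the uterus, 0.16 and -0.039. The dimmer probes of Hoxa3 and Hoxa9 did not repeat these signs. They gave -0.050 and 0.087 for Hoxa3 and -0.087 and 0.14 for Hoxa9, opposite to the brighter probe on both arrays. Hoxa11 was the only detected Hox gene read by repeat spots, and its 10 spots had an SD of 0.073 on array 1 and 0.048 on array 2, with means of -0.023 and 0.036. Its mean over arrays was 0.0062, with a 95% interval from -0.18 to 0.19 that takes its spread from the fit and not from the spots.

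Within HoxB, Hoxb2 had log2 ratios of 0.012 and -0.018, Hoxb3 0.035 and 0.15, Hoxb4, known from blood stem cells, -0.10 and 0.080, and Hoxb5 0.021 and 0.10. Hoxb6 had -0.12 and 0.083, Hoxb7 -0.10 and 0.037, and Hoxb9 0.028 and 0.079. Hoxb13 had 0.23 and -0.019. Apart from Hoxb8 and Hoxb13, the HoxB values on array 1 lay between -0.12 and 0.035. The other Hoxb3 probe gave 0.034 and 0.075, in the same direction as the brighter probe.

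Within HoxC, Hoxc4 had log2 ratios of 0.0033 and 0.18, Hoxc6 -0.028 and 0.013, and Hoxc9 -0.054 and 0.011. Within HoxD, Hoxd8 had 0.054 and 0.20 and Hoxd9 0.094 and -0.071. Hoxc4 and Hoxd8 were above 0 on both arrays, and the other 3 genes were not.

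The proteins that work with Hox factors, or set their expression, were read from lists. The TALE homeodomain proteins (Pbx, Meis and Pknox) bind DNA beside Hox proteins. Of 9, 8 were detected, all but Pknox2, and 0 passed the test in either direction, with a median log2 ratio of -0.0063. Pknox1 had 0.17 and 0.11 on arrays 1 and 2, and Pbx4 had 0.070 and 0.15. Polycomb proteins keep silent Hox genes shut through histone methylation and compaction. All 29 listed were detected, 0 passed, and the median was 0.017. Ezh1, a histone H3 methyltransferase, had 0.20 on both arrays (limma adjusted p = 0.9999), and Cbx6 had 0.12 and 0.073. Of 22 trithorax members and other activators of Hox genes, 18 were detected and 0 passed, with a median of 0.0016. The Cdx1, Cdx2 and Cdx4 probes were not above background. Egr2, a zinc-finger factor that activates Hox genes in the hindbrain and is an immediate early gene, had 0.40 and 0.27, a mean of 0.33 ± 0.092 (SD, n = 2; limma adjusted p = 0.531). Its probe was dim. The mean log2 intensity, offset included, was 6.31 unstimulated and 6.64 with FGF23, beside 6.67 and 6.66 for the dim Hoxc6 probe. Rarb, a retinoic acid receptor, had 0.17 and 0.14. The medians of these 3 lists lay between -0.0063 and 0.017, beside -0.00064 for all genes.

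Of the 11 kidney genes that act downstream of Hox11 or with it, 6 were detected and 0 passed. Six2, Ret, Wnt11, Itga8 and Osr1 were not detected. Gdnf, the ligand that draws out the ureteric bud, had log2 ratios of -0.19 and -0.28 (limma adjusted p = 0.9999), and Sall1 had 0.087 and 0.19. Eya1, a partner of Hox11 proteins, had -0.67 and 0.58. That probe read higher in Cy5 on both arrays, so its ratio changed sign with the dye and its mean of -0.047 has an SD of 0.89.

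Of 21 noncoding and homeobox neighbours listed within the clusters, 8 were on the array by name and 6 were detected, with a median of 0.050. Hoxb5os, an antisense transcript of HoxB, had 0.34 and 0.11, and Hoxd3os1, antisense in HoxD, had 0.18 and 0.090. That Hoxd3os1 probe was dim, at 22.3, 35.3, 43.6 and 16.0. The other Hoxd3os1 probe was above background in 2 of 4 signals, did not pass the filter and gave -0.13 and 0.11. Of 19 other genes beside the clusters, 15 were detected, with a median of -0.0075. Skap1, next to HoxB, had 0.26 and 0.14, and Skap2, next to HoxA, 0.041 and 0.23. No gene of either list passed the test.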

How the data were processed

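Two-colour Agilent arrays compared mIMCD3 RNA with and without FGF23. Per the file headers, the deposited scanner files come from Feature Extraction 11.5.1.1. They gave an intensity per dye, a background-subtracted intensity, a log10 ratio of Cy5 over Cy3 and a p-value of it from the scanner software, per spot, with quality flags and probe positions on mm9.

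limma 3.58.1 under R 4.3.3 corrected the mean signals (normexp, offset 50) and ran loess in each array, giving control spots a weight of 0. Each log2 ratio was turned to FGF23 over unstimulated, flagged outliers were dropped and repeat spots of a probe averaged. A probe was kept if either its FGF23 signal or its unstimulated signal carried the well-above-background flag on array 1 and array 2 alike (26943 of 55681). The brightest such probe stood for its gene (19221 genes). limma (lmFit, eBayes) tested the mean over the 2 arrays, with 1 residual and 12 prior degrees of freedom; the script was tested on simulated data. Dye, array and replicate cannot be told apart, and the number of arrays limits the precision. Symbols were updated through RefSeq transcripts (GRCm38.p6) for 28026 matching probes, of which 1651 were renamed. Sequences are the array's own probes; exon and UTR positions were not analysed here.

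Named with ratios were the Hox genes, except 1 that is not reported here and is in no Hox count, and, of each other gene list, the genes past the test or else the 2 with the largest mean of the same sign on both arrays. Eya1 and the transcripts of the closing section were added after their values were seen. Marker genes are named only as detected or not. Members and lists were chosen with earlier results of these data known.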

Additional observations from a re-analysis of the deposited data

How the results depend on the processing

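No Hox gene passed the test under any of the 7 alternatives of processing or variance model. Median centring says little here, because it left the dyes unbalanced. Its all-gene median log2 ratio was -0.57 on array 1 and 0.56 on array 2, and few genes could pass with the arrays that far apart. Detection held 24 genes under most background rules, 27 with at least 1 of 4 signals, and 24 to 25 on a single array. The Hox median (0.043) was 0.029 with median centring, where the median of all genes also fell, from -0.00064 to -0.015. It was 0.035 with no filter on dim probes, 0.041 to 0.045 over the other alternatives, and 0.024 to 0.032 on a single array. Counts over all genes moved: 9 past limma's test became 5 with offset 0, 0 with Agilent's log ratio, 0 with median centring, 17 with the mean of kept probes and 79 with an intensity trend and robust prior, which also called 1 list gene. The cause was not tested. Hoxd9 became -0.031 with Agilent's log ratio, and Hoxa11 became -0.015 with median centring, the same value as that all-gene median. The order of the highest means also moved. Hoxa6 stood above Hoxb8 with offset 0 (0.26 and 0.23) and with Agilent's log ratio (0.25 and 0.24), where Hoxd4 was 0.30 and 0.32. On array 2 alone 11 Hox genes, and on array 1 alone 5, had the sign opposite to their mean. Each array pairs both conditions, so the test on within-array ratios is itself paired. No paired analysis was possible beyond it, because the arrays form a single group and a block would leave no residual degree of freedom. Signal over background limits Hoxc8, Hoxc10 and Hoxa13.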

Other observations

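The Hox clusters also hold transcripts that are no Hox gene. Within the span of the Hox probes, 18 of 22 other probes were kept in HoxB, 3 of 5 in HoxA, 3 of 5 in HoxD and 2 of 6 in HoxC, where 26943 of 55681 were kept over the whole array. Most of the HoxB probes are repeat probes of a few loci, so these are counts of probes and not of transcripts. HOTAIR, the noncoding RNA of HoxC that lies next to Hoxc12, was read by 5 probes, of which 1 was above background, with log2 ratios of -0.069 and -0.080 on arrays 1 and 2. Hoxa11os, antisense to Hoxa11, was above background with 0.021 and 0.068, beside Hoxa11 with -0.023 and 0.036.

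The transcripts named here were chosen after their values were seen. AI448005, an unnamed transcript (probe at chr2:74569698-74569757, plus strand) beside the Hoxd4 probe, had intensities of 277 and 559 for FGF23 and 434 and 224 for unstimulated RNA on arrays 1 and 2. Its log2 ratios were 0.37 and 0.18, a mean of 0.27 (limma adjusted p = 0.968), where Hoxd4 had 0.095 and 0.37. 2700086A05Rik, next to the Hoxa6 probe, had 0.17 on both arrays, as Hoxa6 had 0.17 and 0.16. Neither passed limma's test, and whether neighbours share a transcript was not tested.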
